A study of Mus musculus with 4 samples.

Results

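The genes of the Kcnq1 imprinted domain were described by the regions of H3K27me3 and H3K4me3 called around them in mouse rosette stem cells, pluripotent cells held between the naive and the primed state. The members were chosen by position, as every region that overlapped the window from 150.25 to 150.75 Mb of chromosome 7 on mouse build mm9, which the rule assigns to Kcnq1, Kcnq1ot1, Cdkn1c, Slc22a18 and Phlda2. That gave 41 of the 76945 regions in the 4 lists. The imprinted window of Igf2 and H19, from 149.74 to 149.87 Mb, held 18 regions and served as the contrast. The Kcnq1 window was selected with the width of its H3K27me3 regions in view, so its positions, widths, scores and ranks are given as descriptions with no test.

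Chromatin came from CGR8 cells, an embryonic stem cell line of strain 129/Ola, and from R1 cells, a line of strain 129. Both had spent 8 days on plates coated with gelatin and fetal calf serum, in N2B27 medium with LIF, a cytokine used to maintain naive cells. The medium also held 2 µM IWP2, an inhibitor of WNT secretion, and 1 µM PD325901, which inhibits the kinase MEK. Each mark was measured by chromatin immunoprecipitation and sequencing in 1 library of each line, so no difference between CGR8 and R1 has a replicate check. No sample named as naive or primed was analysed here, and the identity of the cells was not checked against marker genes, because no gene annotation on mm9 was used. For the same reason no region is tied to a single gene or promoter, and the label of the domain rests on the rule alone.

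Imprinted genes are expressed from one parental allele. In the Kcnq1 domain, the long noncoding RNA Kcnq1ot1 is transcribed from the paternal allele, antisense to the potassium channel gene Kcnq1, from a promoter that is methylated on the maternal allele. Its transcript is known to silence neighbouring genes in cis together with Polycomb complexes, of which PRC2 deposits H3K27me3, while H3K4me3 marks active and poised promoters. The genes silenced on the paternal allele include Cdkn1c, an inhibitor of cyclin-dependent kinases, Phlda2, which restrains placental growth, and Slc22a18, a transporter of the organic cation family. At the neighbouring locus the growth factor gene Igf2 is expressed from the paternal allele and the noncoding RNA H19 from the maternal one. Neither line's lists separate the alleles, so regions of both marks at the same place may lie on different alleles or in different cells.

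All 7 genes were found in the RefSeq gene table of build GRCm38.p6, used here for names and order alone. Along the chromosome they followed each other as H19, Igf2, Kcnq1, Kcnq1ot1, Cdkn1c, Slc22a18 and Phlda2, with Kcnq1ot1 inside Kcnq1. Between Igf2 and Kcnq1 stood 7 protein-coding genes (Ins2, Th, Ascl2, Tspan32, Cd81, Tssc4 and Trpm5), and no protein-coding gene started between Kcnq1 and Phlda2 other than Cdkn1c and Slc22a18.

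A promoter was matched in the RefSeq promoter table for 4 of the 7 genes. The sequences of 3 genes of the domain are shown because H3K4me3 is commonly found at starts rich in CpG, the dinucleotide that carries DNA methylation. They come from RefSeq on GRCm38.p6, whose positions are not comparable with the mm9 positions below, and run from 250 bases before to 50 bases after the start, 5′ to 3′ on the gene's strand. Capitals mark each CpG.
Kcnq1ot1 (chr7:143296498-143296797, minus strand): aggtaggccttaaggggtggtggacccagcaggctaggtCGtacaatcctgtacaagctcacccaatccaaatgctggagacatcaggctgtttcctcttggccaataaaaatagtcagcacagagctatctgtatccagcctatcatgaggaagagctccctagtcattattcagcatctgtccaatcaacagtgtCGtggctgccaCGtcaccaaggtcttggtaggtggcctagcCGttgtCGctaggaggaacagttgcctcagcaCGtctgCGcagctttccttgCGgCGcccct
Phlda2 (chr7:143502475-143502774, minus strand): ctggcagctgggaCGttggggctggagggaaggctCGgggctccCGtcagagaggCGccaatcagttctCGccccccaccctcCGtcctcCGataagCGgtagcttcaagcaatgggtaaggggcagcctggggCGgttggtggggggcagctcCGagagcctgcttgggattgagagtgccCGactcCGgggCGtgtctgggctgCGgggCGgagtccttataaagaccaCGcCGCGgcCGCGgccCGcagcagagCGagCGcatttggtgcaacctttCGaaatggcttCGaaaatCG
Slc22a18 (chr7:143473539-143473838, plus strand): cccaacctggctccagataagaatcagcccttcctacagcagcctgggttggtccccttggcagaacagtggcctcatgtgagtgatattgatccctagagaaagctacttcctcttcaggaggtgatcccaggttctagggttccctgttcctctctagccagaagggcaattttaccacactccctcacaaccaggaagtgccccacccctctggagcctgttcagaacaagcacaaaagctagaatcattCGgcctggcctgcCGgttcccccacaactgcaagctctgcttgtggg

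The Phlda2 promoter held 26 CpG, a number reached by 16.9% of the 32851 promoters of the table. The Kcnq1ot1 promoter held 9, reached by 45.8%, and the Slc22a18 promoter 2, reached by 85.9%. The median promoter had 7, so the 3 starts ran from CpG-rich to CpG-poor. The letters CCAAT, counted on both strands, occurred 3 times in the Kcnq1ot1 promoter, and 3.37% of all promoters held as many. They occurred once in the Phlda2 promoter and not in that of Slc22a18, and 37.4% of all promoters held at least 1 match. The 4 Igf2 starts in the table held 2, 14, 24 and 7 CpG. Matches of letters do not show that a factor bound there.

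H3K27me3 covered most of the Kcnq1 window in both lines, in nearly the same places. Called regions took up 325.6 kb of its 500 kb in CGR8 (65.1%) and 313 kb in R1 (62.6%). Over all chromosomes, up to the last position called in any list, H3K27me3 covered 5.08% in CGR8 and 3.77% in R1. Among 10544 windows of 500 kb placed every 250 kb, the Kcnq1 window ranked 3 by H3K27me3 cover in both lines, against a median of 12.6 kb in CGR8 and 9.2 kb in R1. For H3K4me3, which covered 27.4 kb of the window in CGR8 and 25.2 kb in R1, it ranked 1320 and 1362.

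**Figure D1:**
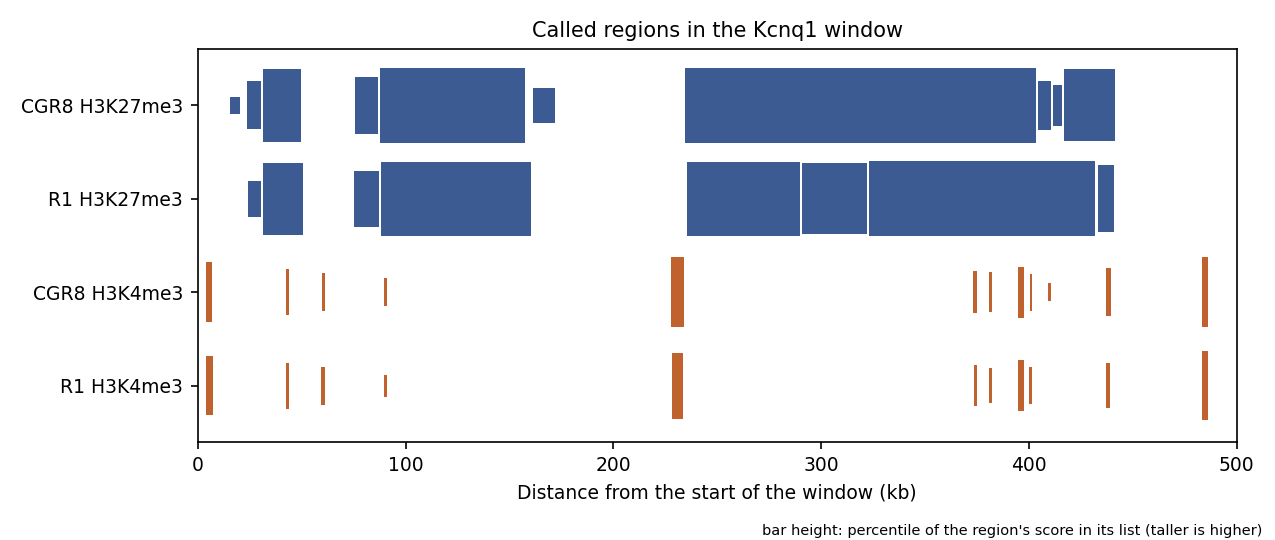
Called regions of both marks along the Kcnq1 window, by distance from its start in kb, in CGR8 and R1. Bar height is the percentile of a region's score in its own list, and 3 blocks of H3K27me3 are found in both lines, the widest of them in the right-hand part of the window, beside 2 regions of CGR8 alone.

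The window held 10 H3K27me3 regions in CGR8 and 8 in R1. Of these, 8 of 10 in CGR8 overlapped an R1 region, where 67.1% of the CGR8 list did, and 8 of 8 in R1 overlapped a CGR8 region, where 81.1% of the R1 list did. Wide regions have more room to overlap, and the window was selected for its wide regions, so nothing is read from these counts. The 2 regions of CGR8 alone, from 150265401 to 150270200 and from 150411201 to 150421800, scored 73.9 and 103. The lowest score of the CGR8 list was 70.6, so the first stood near the limit of calling. Overlap with H3K4me3 was seen for 5 of 10 regions in CGR8, where 41.3% of the list overlapped that mark, and for 4 of 8 in R1, where 48.8% did.

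Measured in bases, 91.5% of the H3K27me3 cover found in either line was found in both. The same share was 49.3% over all chromosomes, 43.5% in the Igf2-H19 window, 58.1% in the 380 kb between the windows and 41.5% in the 500 kb that followed the Kcnq1 window. The CGR8 cover was 1.04 times the R1 cover in the Kcnq1 window, against 1.35 times over all chromosomes. The ratio was 1.41 between the windows and 2.14 after the Kcnq1 window. Since the window was selected for wide regions, these shares and ratios are descriptions and nothing is read from them. Whether wide regions share more of their bases between lines was not tested.

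**Figure D2:**
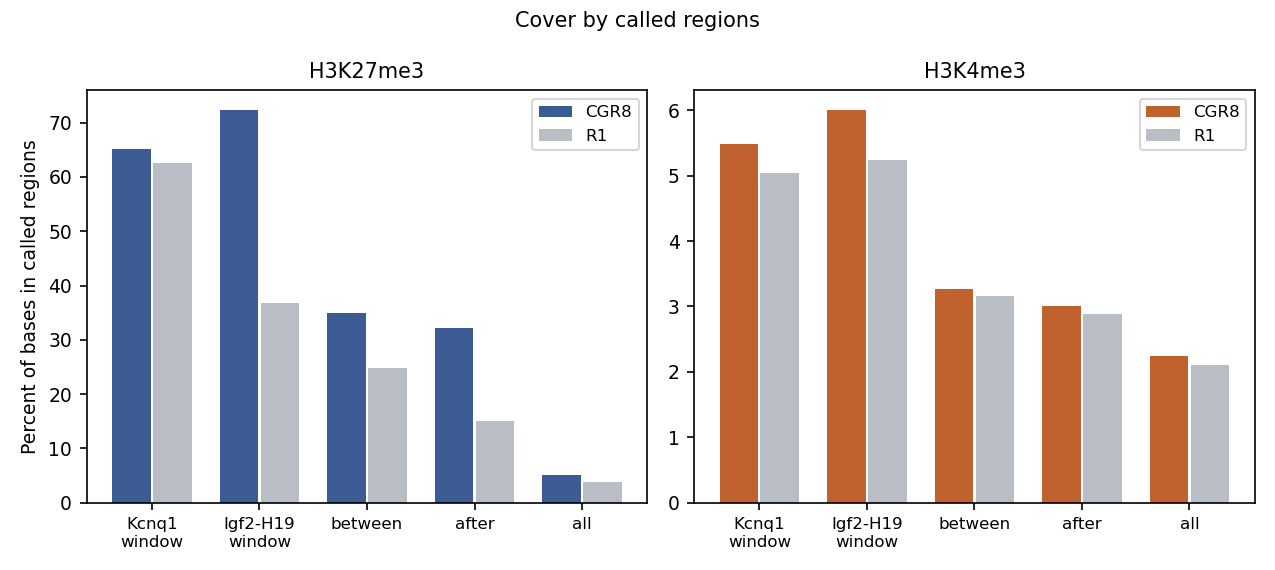
Percent of bases in called regions in the Kcnq1 window, the Igf2-H19 window, the span between them, the 500 kb after the Kcnq1 window and all chromosomes, for 1 library of each line and mark. H3K27me3 cover is 65.1% in CGR8 and 62.6% in R1 in the Kcnq1 window, and 72.3% and 36.8% in the Igf2-H19 window.

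The H3K27me3 regions of the window lay in 3 blocks found in both lines, apart from the 2 regions of CGR8 alone, which stood 3.4 kb before the first block and 3.6 kb after the second. In the first block, a region of 7 kb (score 149) and one of 18.4 kb (score 1062) in CGR8 lay 0.8 kb apart, from 150273601 to 150299800. In R1 the corresponding regions of 6.4 kb (score 91.2) and 19.2 kb (score 881) lay 1 kb apart, from 150274201 to 150300800. The wider of these regions scored above 96.8% of the CGR8 list and 95.9% of the R1 list. A stretch of 26 kb in CGR8 and 24.2 kb in R1 without called H3K27me3 followed.

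The second block was dominated by 1 region in each line. It ran from 150337801 to 150407600 in CGR8 (69.8 kb, score 2776) and from 150338001 to 150410400 in R1 (72.4 kb, score 2526). It ranked 9 by width in both lists, and 82 by score in CGR8 and 84 in R1. A smaller region of 11 kb in CGR8 and 12 kb in R1 lay 1 kb before it. The start of the wide region differed by 200 bp between the lines and its end by 2.8 kb, so the lines placed the block alike.

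Between the second and the third block lay the widest interruption of H3K27me3 inside the window. It measured 62.6 kb in CGR8, from 150421801 to 150484400, and 74.8 kb in R1, from 150410401 to 150485200. The difference of these lengths reflects the CGR8 region of score 103 named above, with no R1 partner. The interruption touched 1 H3K4me3 region in each line, at its far end. After the third block no H3K27me3 was called up to the end of the window, over 58.6 kb in CGR8 and 59 kb in R1, and the next region began at 150867001 in CGR8 and at 150867201 in R1.

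The third block was called as different pieces in the lines, although its outer bounds were almost the same. In CGR8 it consisted of a region from 150484401 to 150653400 (169 kb, score 7680), then regions of 6 kb, 4.4 kb and 24.6 kb. In R1 the pieces were 54.6 kb (score 1510), 31.4 kb (score 700), 109.2 kb (score 4835) and 7.8 kb (score 469). The widest piece ranked 1 by width and 7 by score in CGR8, and 5 by width and 9 by score in R1. It was 1.55 times as wide in CGR8 as in R1. The pieces were separated by 0.8 to 1.2 kb in both lines, at or just above the 0.8 kb that was the smallest gap in either H3K27me3 list.

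With gaps of up to 2 kb joined, a choice made after these gaps were seen, the block became a single run of 207 kb in CGR8 and 205.8 kb in R1. The run began at 150484401 in CGR8 and at 150485201 in R1, and ended at 150691400 in CGR8 and at 150691000 in R1. It was the widest of 12650 runs in CGR8 and of 11016 in R1 when both lists were joined this way. Its width in CGR8 was 1.01 times that in R1, and its summed score, 8874 in CGR8 and 7514 in R1, differed by a factor of 1.18. The difference in width between the widest pieces thus depended on where short gaps divided the calls. There were 3 such gaps in each line, at different positions.

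**Figure D3:**
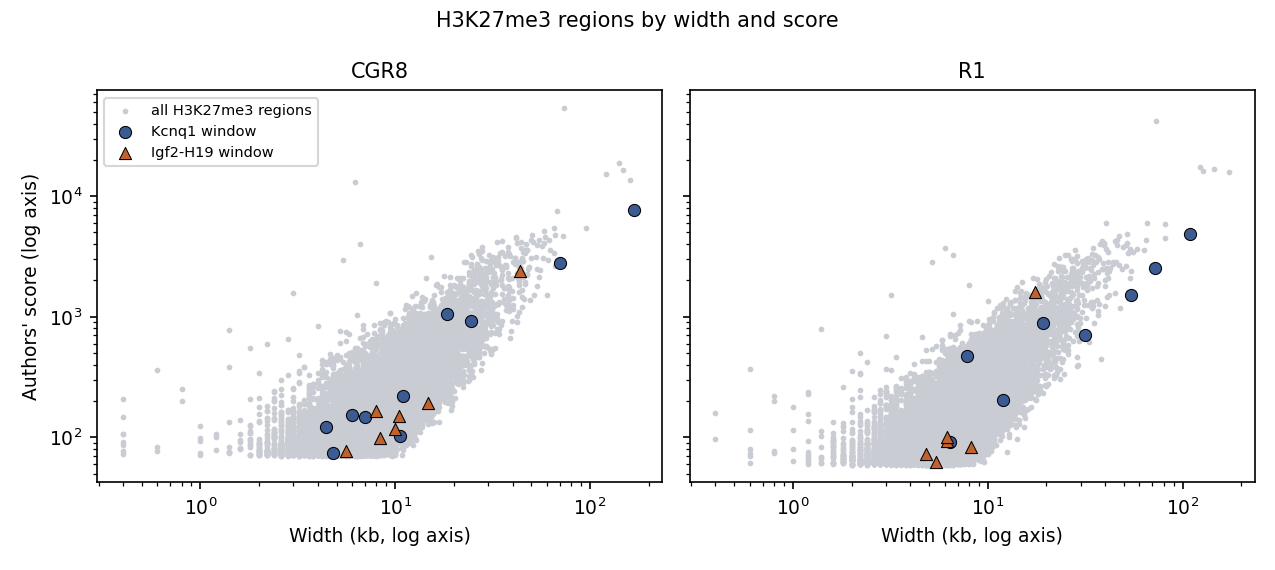
Width (kb, log axis) against the authors' score (log axis) of all H3K27me3 regions of CGR8 and R1, with regions of the Kcnq1 window as circles and of the Igf2-H19 window as triangles. The widest regions of the Kcnq1 window, 169 kb in CGR8 and 109.2 kb in R1, lie at the far right and below other regions of similar width.

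The wide regions of the domain had low scores for their width. The 169 kb region of CGR8 had a score of 45.4 per kb and the 69.8 kb region 39.8 per kb. They took places 28 and 32 among the 36 CGR8 regions of at least 50 kb, whose median was 66.2 per kb. In R1 the regions of 109.2, 72.4 and 54.6 kb had 44.3, 34.9 and 27.6 per kb, and took places 20, 23 and 24 among 24 regions with a median of 66.0 per kb. In each line they still exceeded the median of the whole list, 19.6 per kb in CGR8 and 20.6 per kb in R1.

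Score per kb also differed along the third block in R1. The pieces at its start had 27.6 and 22.3 per kb, and those at its end 44.3 and 60.1 per kb. In CGR8 the first piece, of 169 kb, had 45.4 per kb, and those after it had 25.7, 27.5 and 37.3 per kb. The order seen in R1 was thus not found in CGR8, whose pieces were divided at other places. The score is summed over a region and has no stated formula, so these values describe the calls and are not a level of the mark.

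H3K4me3 was found at the same places of the window in both lines. There were 12 regions in CGR8 and 11 in R1. Of these, 11 of 12 in CGR8 overlapped an R1 region, near the 89.8% of the whole CGR8 list, and 11 of 11 in R1 overlapped a CGR8 region, near the 92.6% of the R1 list. The remaining region, of CGR8 alone, ran from 150659401 to 150660400 and scored 44.5, above 5.56% of its list. The lowest H3K4me3 score was 38.5 in CGR8 and 37.3 in R1, so it was among the weakest calls.

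In each line 4 H3K4me3 regions were free of H3K27me3, and 3 of them held the highest scores of the window. The first lay from 150253801 to 150256800 in CGR8 (score 1271) and from 150253801 to 150257200 in R1 (score 1244), before the first block. The highest-scoring one, near the far end of the window, had the same bounds in both lines, from 150733401 to 150736200, and scored 2569 in CGR8 and 2450 in R1. It stood above 91.9% of the CGR8 list and 91.8% of the R1 list. A weaker region in the stretch between the first and second block scored 181 in CGR8 and 179 in R1.

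The remaining region without H3K27me3 stood immediately before the third block. It ran from 150477801 to 150483800 in CGR8 (6 kb, score 2469) and from 150478201 to 150483400 in R1 (5.2 kb, score 1877). It was the widest H3K4me3 region of the window in both lines and scored above 91.2% of the CGR8 list and 85.8% of the R1 list. H3K27me3 began 600 bp after its end in CGR8 and 1.8 kb after it in R1, and on its other side none was called for 56 kb in CGR8 and 67.8 kb in R1. This region thus marked the edge between the widest interruption and the widest run of H3K27me3 in both lines.

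**Figure D4:**
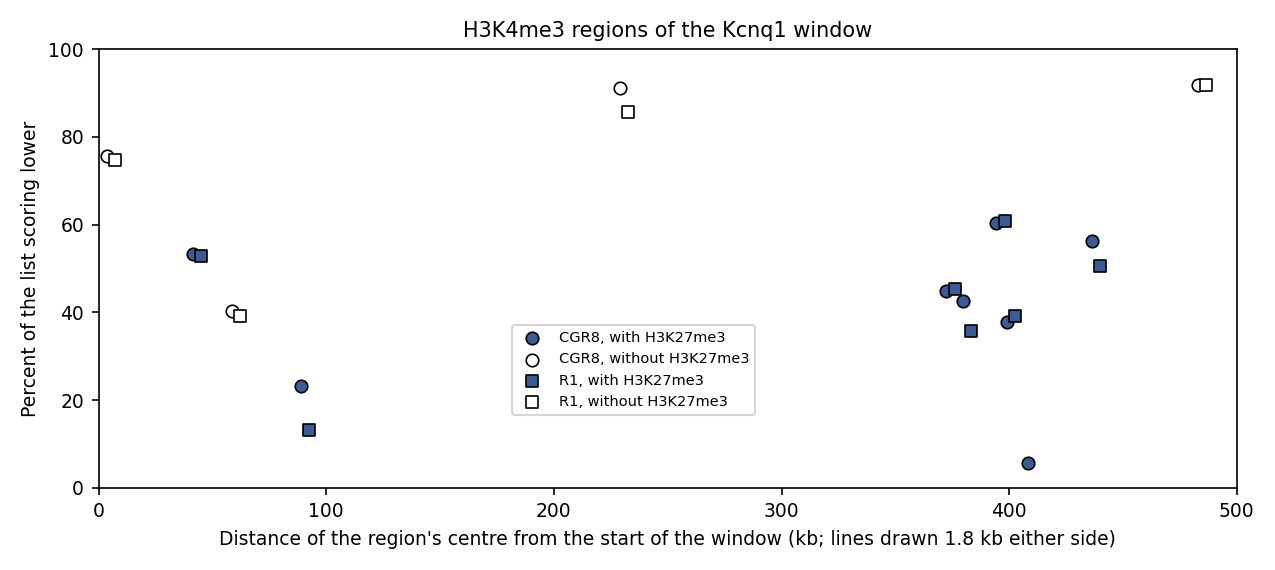
Score percentile of each H3K4me3 region of the Kcnq1 window in its own list, by distance from the start of the window in kb, for CGR8 (circles) and R1 (squares). Open symbols are regions without H3K27me3, of which 3 in each line lie above the highest filled one, at 60.4% in CGR8 and 60.8% in R1.

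The other H3K4me3 regions lay wholly within H3K27me3, 8 of 12 in CGR8 and 7 of 11 in R1, where 28.2% of the CGR8 list and 29.1% of the R1 list overlapped that mark. The window was selected for its wide H3K27me3, so nothing is read from these counts. Their median score was 225 in CGR8 and 265 in R1, against 1870 and 1560 for the 4 regions without H3K27me3. In the whole lists the same medians were 321 with and 342 without H3K27me3 in CGR8, and 374 and 350 in R1. The contrast within the window rests on 4 regions in each line and was not tested.

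Within the run of the third block, H3K4me3 was restricted to its far part. The first 138.8 kb of the run in CGR8 and 138.4 kb in R1 held no H3K4me3 region. The remaining part, 68.2 kb in CGR8 and 67.4 kb in R1, held 6 and 5 of them. The strongest of them ran from 150644601 to 150647800 in CGR8 (score 645) and from 150644801 to 150647800 in R1 (score 694), above 60.4% and 60.8% of their lists. The last lay from 150687201 to 150689600 in CGR8 (score 504) and from 150687201 to 150689000 in R1 (score 376), 1.8 kb and 2 kb before the end of the run.

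Of the other regions in the run, 3 were found in both lines, at 1.2 to 2 kb wide in CGR8 and 1.2 to 1.6 kb in R1. Regions starting at 150623201 and 150631001 in CGR8 scored 242 and 209, and their partners starting at 150623601 and 150630801 in R1 scored 265 and 145. A region starting at 150650401 scored 158 in CGR8 and its partner starting at 150650001 scored 178 in R1. These lay in the middle or lower part of their lists, above 35.7% to 45.3% of them.

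Elsewhere in H3K27me3 only 2 H3K4me3 regions per line were called. The one in the first block scored 415 in CGR8 and 436 in R1. The one near the start of the second block scored 79.0 in CGR8 and 54.4 in R1, above 23.3% and 13.1% of the lists. No other H3K4me3 was called in the second block in either line.

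H3K4me3 covered a small share of the wide H3K27me3 regions of the domain. It was 4.62% of the 169 kb region and 2.01% of the 69.8 kb region in CGR8, against a median of 10.4% over the 36 regions of at least 50 kb. In R1 it was 6.59% of the 109.2 kb region, 1.66% of the 72.4 kb region and 0% of the 54.6 kb region, against a median of 12.4% over 24 regions. Over the whole window 50.4% of H3K4me3 bases in CGR8 and 46.0% in R1 also lay in H3K27me3, against 19.9% and 21.4% over all chromosomes. The selection of the window for wide H3K27me3 bears on this share.

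Scores were compared where regions of the lines matched one to one. For the 11 H3K4me3 pairs of the window the median log2 ratio of scores (CGR8 over R1) was 0.03, within a range of -0.17 to 0.54. Over all 21972 H3K4me3 pairs with a single partner it was 0.03, with quartiles of -0.17 and 0.23. The ratio exceeded that upper quartile at 4 places, the region before the third block (0.40) and the regions starting in CGR8 at 150339801 (0.54), 150631001 (0.52) and 150687201 (0.42). At the region starting in CGR8 at 150650401 the ratio lay just below the lower quartile, at -0.173 against -0.167. The 4 H3K27me3 pairs had log2 ratios of 0.71, 0.27, 0.12 and 0.14, against a median of 0.25 over 8167 pairs, with quartiles of -0.03 and 0.57. The first of them, the 7 kb region of CGR8 in the first block, lay above the upper quartile and scored 1.63 times its R1 partner. The third block, divided differently in the lines, gave no such pair. No spread between replicates was available to set against these ratios.

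The Igf2-H19 window carried H3K27me3 as well, but the lines differed in its extent. Called regions covered 94 kb of its 130 kb in CGR8 (72.3%) and 47.8 kb in R1 (36.8%), a ratio of 1.97. The ratio was 1.35 over all chromosomes and 2.14 in the 500 kb after the Kcnq1 window. Of the 7 regions of the Igf2-H19 window in CGR8, 5 had an R1 partner, near the 67.1% of the whole CGR8 list. All 6 in R1 had a CGR8 partner, where 81.1% of the R1 list did. The core was a region from 149809801 to 149853600 in CGR8 (43.8 kb, score 2380) and from 149835801 to 149853200 in R1 (17.4 kb, score 1602). Its end was shared to within 400 bp, while its start lay 26 kb earlier in CGR8. At that start R1 also had a called region, from 149805001 to 149813200 (8.2 kb, score 83.5). A stretch of 22.6 kb without called H3K27me3 separated it from the R1 core. The core had a score of 54.3 per kb in CGR8 and 92.1 per kb in R1, which ranked 930 and 142 by that measure. The widest regions of the Kcnq1 window had 45.4 and 44.3 per kb. The highest value in the Kcnq1 window was 57.7 per kb in CGR8, above the core, and 60.1 per kb in R1, below it.

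**Figure D5:**
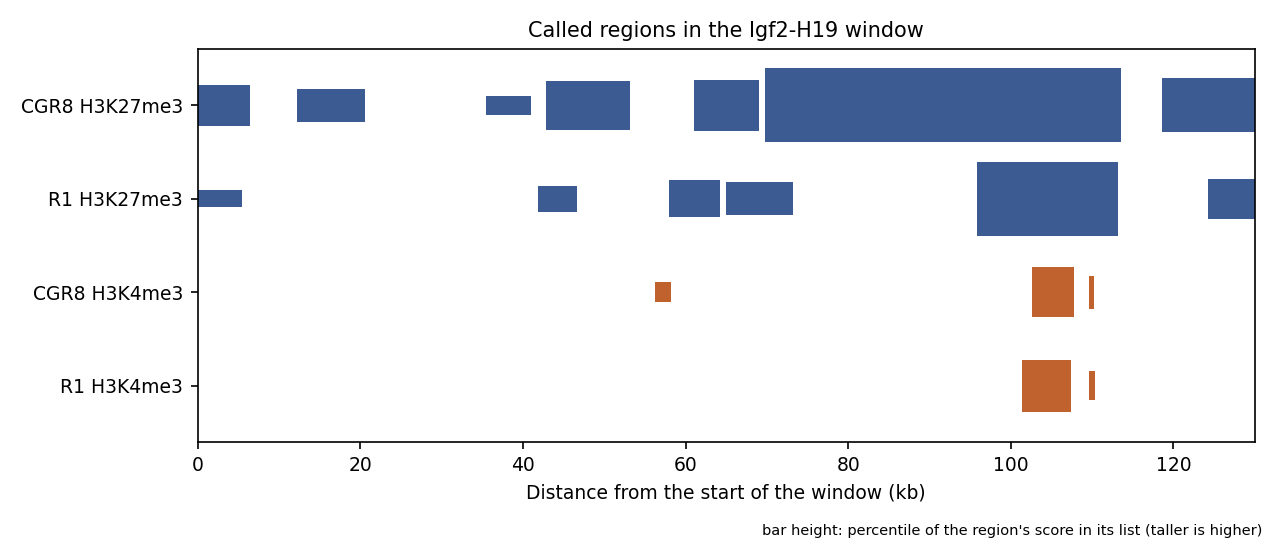
Called regions of both marks along the Igf2-H19 window, by distance from its start in kb, with bar height as the percentile of the score in its own list. The core H3K27me3 region is 43.8 kb wide in CGR8 and 17.4 kb in R1, ends at nearly the same place and holds the H3K4me3 regions found in both lines.

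The other H3K27me3 regions of the Igf2-H19 window scored 76.5 to 195 in CGR8 and 62.5 to 100 in R1. In CGR8 they stood on both sides of the list median of 132, above 8.69% to 66.4% of the list. In R1 all lay below the list median of 116, above 5.77% to 42.5% of the list. The CGR8 regions from 149736401 to 149746400 and from 149858601 to 149873400 crossed a bound of the window. So did the R1 region from 149864201 to 149870400. Scores and widths of these regions include bases outside the window. In the 3 pairs with a single partner the scores were 1.89 to 2.10 times as high in CGR8 as in R1. Their log2 ratios were 0.92 to 1.07, against a median of 0.25 over all 8167 H3K27me3 pairs, with quartiles of -0.03 and 0.57. The CGR8 regions of these pairs were also wider, at 10, 10.4 and 14.8 kb against 5.4, 4.8 and 6.2 kb in R1. Per kb they scored 11.8, 14.6 and 13.1 in CGR8, and their partners 11.6, 15.0 and 16.2 in R1. The higher summed scores thus went with wider calls and not with a higher score per kb throughout.

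H3K4me3 was sparse in the Igf2-H19 window, at 3 regions in CGR8 and 2 in R1. The pair inside the core was found in both lines, starting at 149842601 in CGR8 (5.2 kb, score 598) and at 149841401 in R1 (6 kb, score 754), and at 149849601 in each (scores 109 and 83.9). The region of CGR8 alone, from 149796201 to 149798200, scored 51.5. Outside H3K27me3 lay 4 of 12 in CGR8 and 4 of 11 in R1 of the H3K4me3 calls in the Kcnq1 window, and 1 of 3 in CGR8 and 0 of 2 in R1 in the Igf2-H19 window. H3K27me3 overlapped only 28.2% of the whole H3K4me3 list for CGR8 and 29.1% for R1, so most listed regions lay outside it. The Kcnq1 window was selected for its wide H3K27me3, and the counts of both windows are too small to compare.

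The bounds of the Kcnq1 window decided few regions. The nearest H3K4me3 region before it, from 150237801 to 150242600 in CGR8 and from 150238001 to 150242600 in R1, scored 3987 in CGR8 and 3860 in R1, more than any H3K4me3 region inside. The nearest after it began at 150784401 in CGR8 and 150784601 in R1, with scores of 1809 and 1797. The nearest H3K27me3 region before it ended at 150163200 in CGR8 (score 461) and at 150165600 in R1 (score 69.5). Those next after it scored 89.2 in CGR8 and 101 in R1, and no H3K27me3 region crossed either bound.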

How the data were processed

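H3K27me3 and H3K4me3 regions of 4 libraries were used, 1 for each line and mark, grouped by their labels. Each list the authors deposited gives the position of its regions and a score, with no unit or formula. The submitters' processing notes name Bowtie2 2.0.2, SICER 1.1, bedtools 2.20.1 and build mm9. Caller settings and any control library were not given in the sources used here. Bounds lie on a grid of 200 bp, and the smallest gap was 800 bp for H3K27me3 and 400 bp for H3K4me3.

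Positions were counted from 1. Regions overlapped when they shared at least 1 bp. Ranks and percentiles were taken within a list. Total reads are unknown, but scores of regions up to 400 bp equalled sums of negative natural logs of Poisson probabilities (tolerance 1e-06) for a mean of reads per 200 bp of 2.11 (CGR8) and 1.92 (R1) for H3K27me3, and of 0.740 and 0.706 for H3K4me3. The R1 H3K27me3 mean rests on 2 regions. A region not called at this depth may still carry the mark.

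No test was run: each line and mark has 1 library, and members and lists were chosen with earlier results of these data known. Every region overlapping either window is described. Overlap and depth steps were tested on simulated data. Python 3.11.15, numpy 2.4.6, pandas 2.3.3, scipy 1.17.1 and matplotlib 3.10.9 were used.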

Additional observations from a re-analysis of the deposited data

How the results depend on the processing

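The values for each line were recomputed with other thresholds, bounds, gaps and overlaps, and 71 of 88 stayed within 1.5 times the reported value. Part of that count came from settings that changed almost nothing. Requiring at least 50% of a region changed no value. A common lowest score per mark changed only the H3K27me3 cover of the Igf2-H19 window in R1, to 42.4 kb. With only the upper 50% of scores in each list, the Kcnq1 window kept 6 H3K4me3 regions in each line, all 6 of them found in the other line, with 3 inside H3K27me3 in each line. The same limit left 1 H3K4me3 region in each line and 17.4 kb of H3K27me3 in R1 in the Igf2-H19 window. Widening by 50 kb on either side raised the H3K27me3 cover of that window to 159.6 kb in CGR8 and 87 kb in R1. Before widening, 94 kb in CGR8 and 47.8 kb in R1 were covered, of 130 kb. The widened window was itself longer, so the rise in kb is not a rise in the share of bases covered. The highest-scoring H3K27me3 region of the Kcnq1 window ranked 1 in CGR8 and 5 in R1 by width, and 1525 and 1732 by score per kb. Joining gaps of up to 2 kb, added after the data were seen, left 5 H3K27me3 regions in CGR8 and 3 in R1. H3K27me3 cover of the Kcnq1 window stayed within 1.5 times under every alternative run. No paired analysis was possible because each line and mark has 1 library and no test was run. Depth limits weak regions most, and the alleles of the imprinted genes cannot be told apart in these lists.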
